A study of Homo sapiens with 6 samples.

Results

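The transcripts described here are those of 10 genes of base excision repair and poly(ADP-ribose) synthesis, namely OGG1, UNG, MUTYH, NTHL1, APEX1, POLB, XRCC1, LIG3, PARP1 and PARP2. They were taken as a named list, and all 15 probe sets that the array's annotation gives to these genes alone were used, of 22215 probe sets tested (11963 genes have a probe set of their own). None of the 10 genes lacked a probe set, and 0 member probe sets were shared with another gene. The cells were MDA-MB-231, a human breast cancer line of the triple-negative class. The baseline group held 3 samples at 0 h, with the replicate marks E, 4 and 5. The other group held 3 samples after 12 h of dinaciclib, with the marks F, 4 and 5. Dinaciclib is a small-molecule inhibitor of several cyclin-dependent kinases, among them CDK9, which acts in transcription. Per the labels, all cells grew in RPMI with serum and antibiotics and the drug was added in DMSO. The dose is not given, nor whether baseline cells received DMSO, and no group was kept for 12 h without the drug, so effects of the drug, of time and of solvent cannot be told apart. The labels name no separate cultures, so each p-value reflects how these 6 samples vary, and that variation may be technical alone. In bulk RNA, fewer cells of a kind and less transcript per cell cannot be told apart.

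Base excision repair removes single damaged bases. A DNA glycosylase cuts the bad base out, the endonuclease APEX1 opens the strand at the empty site, DNA polymerase beta fills the gap and the ligase LIG3, held by the scaffold XRCC1, closes it. PARP1 and PARP2 bind the strand break on the way and build poly(ADP-ribose) chains that gather XRCC1 and its partners, and they are the targets of PARP inhibitors used in breast cancer.

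After 12 h of dinaciclib, transcripts at several steps of this pathway were lower. MUTYH, APEX1 and XRCC1 fell on the only probe set each has, and OGG1, LIG3 and PARP2 fell on 1 probe set each of their 3, 2 and 3. PARP1, UNG, POLB and NTHL1 did not pass the test. Of the 15 probe sets, 6 were called lower and 0 higher at a Benjamini-Hochberg adjusted p under 0.05 (limma), while 13.4% of all probe sets were called lower and 3.86% higher. In 10 of the 15 the highest dinaciclib value lay below the lowest baseline value, against 26.5% of all probe sets, and in 0 of the 15 the groups were apart the other way, against 10.1%. The median log2 change of the 15 was -0.80, beside -0.21 over all probe sets. When the dimmest 40% of probe sets were left out, 8 of the 13 remaining member probe sets were called lower, and so were 30.0% of all those tested. The count of 6 was 2 without baseline 4 or baseline 5 and 3 without dinaciclib 5, where fewer probe sets were called overall (5.6%, 5.62% and 7.62% lower).

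**Figure D1:**
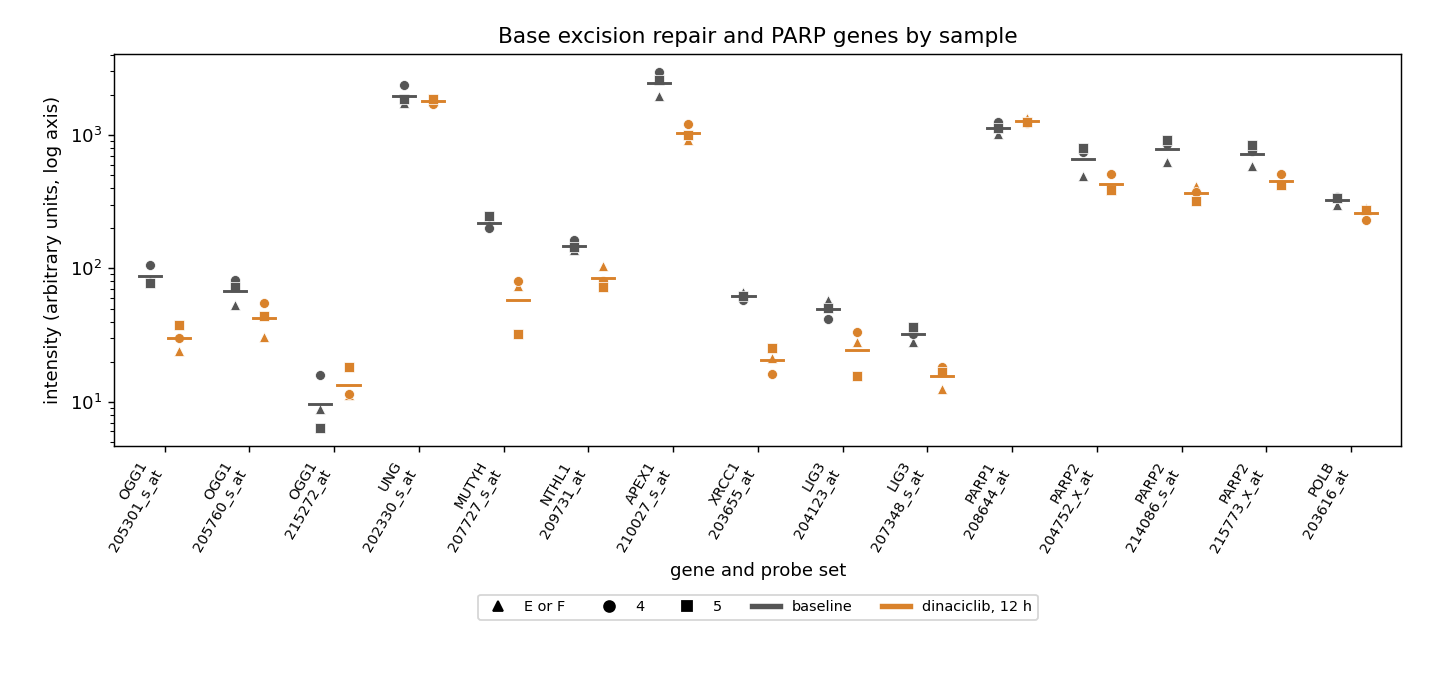
Intensity (log axis) of each of the 15 probe sets in the 6 samples, grey for baseline and orange for dinaciclib, with the shape giving the replicate mark and the bar the mean of log2(value + 1) turned back to intensity. The groups are apart for APEX1, XRCC1 and MUTYH, where the highest dinaciclib values were 1216, 25.4 and 80.4, and interleave for UNG and PARP1.

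The sequence before the start of 4 members is given because APEX1 and XRCC1 fell on their only probe set and PARP2 on 214086_s_at alone, while PARP1 did not pass. MUTYH also fell on its only probe set but has several RefSeq starts, and its sequence is not shown. Each is the 250 bases upstream of the RefSeq gene start (build GRCh38.p14), written from 5′ to 3′ on the gene's strand. Capitals mark, on either strand, the GC box GGGCGG, the CCAAT box CCAAT, the cyclic AMP response element TGACGTCA, the E-box CACGTG, the ETS word CCGGAAGT and the E2F words TTTCCCGC and TTTGGCGC, none of which holds another.
APEX1, chr14:20454976-20455225, plus strand: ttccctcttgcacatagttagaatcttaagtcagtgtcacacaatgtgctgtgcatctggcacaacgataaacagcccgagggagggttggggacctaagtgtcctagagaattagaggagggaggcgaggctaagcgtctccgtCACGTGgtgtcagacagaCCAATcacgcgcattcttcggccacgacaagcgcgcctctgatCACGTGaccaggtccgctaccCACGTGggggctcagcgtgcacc
XRCC1, chr19:43575528-43575777, minus strand: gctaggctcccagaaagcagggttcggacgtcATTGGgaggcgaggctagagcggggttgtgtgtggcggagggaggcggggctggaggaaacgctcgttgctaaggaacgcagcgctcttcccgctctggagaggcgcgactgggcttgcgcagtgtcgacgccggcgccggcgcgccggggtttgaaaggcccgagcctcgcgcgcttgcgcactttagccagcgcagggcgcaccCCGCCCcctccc
PARP2, chr14:20343385-20343634, plus strand: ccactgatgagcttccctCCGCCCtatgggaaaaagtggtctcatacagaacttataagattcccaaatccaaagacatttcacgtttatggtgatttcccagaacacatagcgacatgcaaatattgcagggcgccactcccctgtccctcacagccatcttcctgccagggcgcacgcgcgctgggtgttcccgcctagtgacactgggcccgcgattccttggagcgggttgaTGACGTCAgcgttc
PARP1, chr1:226408094-226408343, minus strand: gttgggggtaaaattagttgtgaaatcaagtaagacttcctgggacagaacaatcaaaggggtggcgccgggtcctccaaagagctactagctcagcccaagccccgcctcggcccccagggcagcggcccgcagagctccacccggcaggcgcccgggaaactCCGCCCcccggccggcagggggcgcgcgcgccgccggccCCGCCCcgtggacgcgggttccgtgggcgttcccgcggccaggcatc

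APEX1 had 3 E-box matches and 1 CCAAT match, and an E-box stood in 6.3% of all 35116 windows of this length. Among the other members, E-box matches stood in a window of UNG (2), NTHL1 (1) and LIG3 (1), and UNG and NTHL1 did not pass the test. PARP2 had 1 full cyclic AMP response element, found in 1.6% of all windows, and 1 GC box. XRCC1 had 1 GC box and 1 CCAAT box, and PARP1 had 2 GC boxes, words found in 42.6% (GC box) and 32.0% (CCAAT) of windows. Of the 9 members with a window, with 12 windows in all, 8 had a GC box in at least 1 window, APEX1 being the exception. This counts genes, unlike the 42.6%, which counts windows. The G and C content of the 12 ran from 54.4% (PARP2) to 74.0% (NTHL1), beside a median of 58.0% over all windows. None of the 12 held an E2F word, which 1.9% of all windows did. These matches describe letters in a window and not binding.

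Among the glycosylases, MUTYH, which removes adenine paired with 8-oxoguanine, had the largest fall of the 10 genes. Its intensities were 219, 199 and 245 in baseline E, 4 and 5 and 73.7, 80.4 and 32.1 in dinaciclib F, 4 and 5. All 3 dinaciclib values lay below every baseline value, and dinaciclib 5 was the lowest. The log2(value + 1) mean went from 7.79 ± 0.15 to 5.87 ± 0.72 (SD, n = 3), a log2 change of -1.92 (standard error 0.38, 3.78-fold lower; limma, Benjamini-Hochberg adjusted p = 0.0196). The call was lost without baseline E, 4 or 5 (adjusted p 0.0535, 0.0624 and 0.0693), with changes of -1.92, -1.99 and -1.84.

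OGG1, the glycosylase that removes 8-oxoguanine itself, differed between its 3 probe sets. On 205301_s_at it read 81.7, 105 and 77.8 at baseline and 24.2, 30.2 and 38.0 after dinaciclib. The groups did not overlap, and the log2 change of -1.50 (standard error 0.25, 2.83-fold lower; limma, Benjamini-Hochberg adjusted p = 0.0118) passed whichever 1 sample was left out. On 205760_s_at, the brightest by mean log2 value over all 6 samples, it read 52.9, 81.8 and 72.6 at baseline and 30.8, 55.4 and 43.8 after dinaciclib. Here baseline E lay below dinaciclib 4, and the change of -0.68 (standard error 0.29; adjusted p = 0.181) did not pass. The remaining probe set, 215272_at, was dim (mean 10.3 before and 13.6 after the drug) with overlapping groups, and its change of 0.42 (standard error 0.37; adjusted p = 0.505) did not pass.

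NTHL1, which removes oxidised pyrimidines, read 137, 164 and 144 at baseline and 105, 80.4 and 72.5 after dinaciclib. Every dinaciclib value was below every baseline value, yet the log2 change of -0.80 (standard error 0.22; limma, Benjamini-Hochberg adjusted p = 0.0537) fell just short of the threshold. The NTHL1 change was -0.31 after quantile normalization (adjusted p = 0.31) and -0.34 with arrays centred on their median (0.22). It was called in 0 of the 6 fits that left out 1 sample. UNG, which removes uracil from DNA, read 1727, 2371 and 1866 at baseline and 1809.9, 1691 and 1870.2 after dinaciclib. Its groups overlapped, and the change was -0.14 with a 95% confidence interval of -0.63 to 0.35, or 0.31 with arrays centred on their median.

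APEX1, the main endonuclease at abasic sites, read 1951, 2966 and 2597 at baseline and 916, 1216 and 991 after dinaciclib. The lowest baseline value, in sample E, was still above the highest dinaciclib value. The log2 change was -1.25 (standard error 0.24, 2.39-fold lower; limma, Benjamini-Hochberg adjusted p = 0.0182). It kept its size but not its call without baseline 4 (-1.12, adjusted p = 0.0671), baseline 5 (-1.22, 0.0717), dinaciclib F (-1.17, 0.0548) or dinaciclib 5 (-1.22, 0.062).

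In gap filling and ligation, XRCC1, the scaffold that binds LIG3 and polymerase beta, read 66.4, 58.3 and 62.1 at baseline and 21.5, 16.2 and 25.4 after dinaciclib. The baseline values were close together and the groups were well apart. The log2 change of -1.54 (standard error 0.22, 2.91-fold lower; limma, Benjamini-Hochberg adjusted p = 0.00829) passed in all 6 fits that left out 1 sample. The size of the XRCC1 change depended on the value added before the logarithm, and it was -1.09 with log2(value + 16).

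LIG3, the ligase bound to XRCC1, had equal changes on its 2 probe sets but passed on only 1. On 207348_s_at it read 27.9, 32.2 and 36.7 at baseline and 12.4, 18.3 and 16.7 after dinaciclib, a log2 change of -0.99 (standard error 0.23; limma, Benjamini-Hochberg adjusted p = 0.0319). This probe set was dim after dinaciclib (mean 15.8) and was not among those kept when dim ones were left out. On the brighter 204123_at it read 57.9, 42.0 and 50.4 and then 27.9, 33.4 and 15.6, a change of -0.99 with a larger standard error of 0.32 (adjusted p = 0.0871). Neither probe set had overlapping groups. The call on 207348_s_at, which had the highest adjusted p of the 6, held without baseline E and was lost without each of the other 5 samples, among which the adjusted p was 0.0621 without dinaciclib 4 and 0.117 without baseline 5. It was also lost after quantile normalization (-0.73, adjusted p = 0.0552), centring on the array median (-0.54, 0.0939) and a variance trend (0.0597), and the change was -0.60 with log2(value + 16).

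POLB, which encodes DNA polymerase beta, read 297, 343 and 337 at baseline and 281, 230.6 and 273 after dinaciclib. The groups did not overlap, but they lay close, with a log2 change of -0.32 and a 95% confidence interval of -0.78 to 0.14 (limma, Benjamini-Hochberg adjusted p = 0.328). The POLB change had the opposite sign after quantile normalization (0.10) and median centring (0.13).

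PARP1, the more abundant of the 2 break-sensing PARP enzymes in most cells, read 1013, 1259.5 and 1127 at baseline and 1346, 1237 and 1252 after dinaciclib. The groups overlapped. Its log2 change was 0.18 with a 95% confidence interval of -0.27 to 0.63 (limma, Benjamini-Hochberg adjusted p = 0.588), so a fall of the size seen for APEX1 lay outside the interval. With each array centred on its median, PARP1 was called higher (0.63, adjusted p = 0.0258).

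PARP2, its relative, had 3 probe sets with changes in 1 direction. On 214086_s_at it read 629, 857 and 909 at baseline and 414, 376 and 321 after dinaciclib. The groups were apart, and the log2 change was -1.10 (standard error 0.23, 2.14-fold lower; limma, Benjamini-Hochberg adjusted p = 0.0241). That call was lost without baseline 4 (adjusted p = 0.0868), baseline 5 (0.0928), dinaciclib 4 (0.0713) or dinaciclib 5 (0.0781), with changes between -1.11 and -0.99. The other two, 204752_x_at and 215773_x_at, had changes of -0.63 and -0.66 and did not pass (adjusted p = 0.167 and 0.0928). An _x_at ending marks probe sets in which some probes can bind other transcripts. The first of these read 488, 745 and 799 and then 389, 512 and 389.9, so that baseline E lay below dinaciclib 4. The latter read 585, 753 and 835 and then 431, 509.7 and 423, with no overlap.

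The changes of PARP1 and PARP2 were set against each other within each array, a comparison chosen after the values were seen. The log2 difference of PARP1 minus PARP2, whose level has no meaning across probe sets, shifted by 1.27 on 214086_s_at, with an SD among the 3 samples of 0.19 at baseline and 0.14 after dinaciclib (two-sided exact permutation test, p = 0.1, also p = 0.1 after Benjamini-Hochberg adjustment over 3 pairs). On 204752_x_at and 215773_x_at the shifts were 0.81 and 0.84, with the same exact p. With 3 samples against 3, 0.1 is the smallest p this test can give, so it could not pass 0.05, and the shifts are given as a description.

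**Figure D2:**
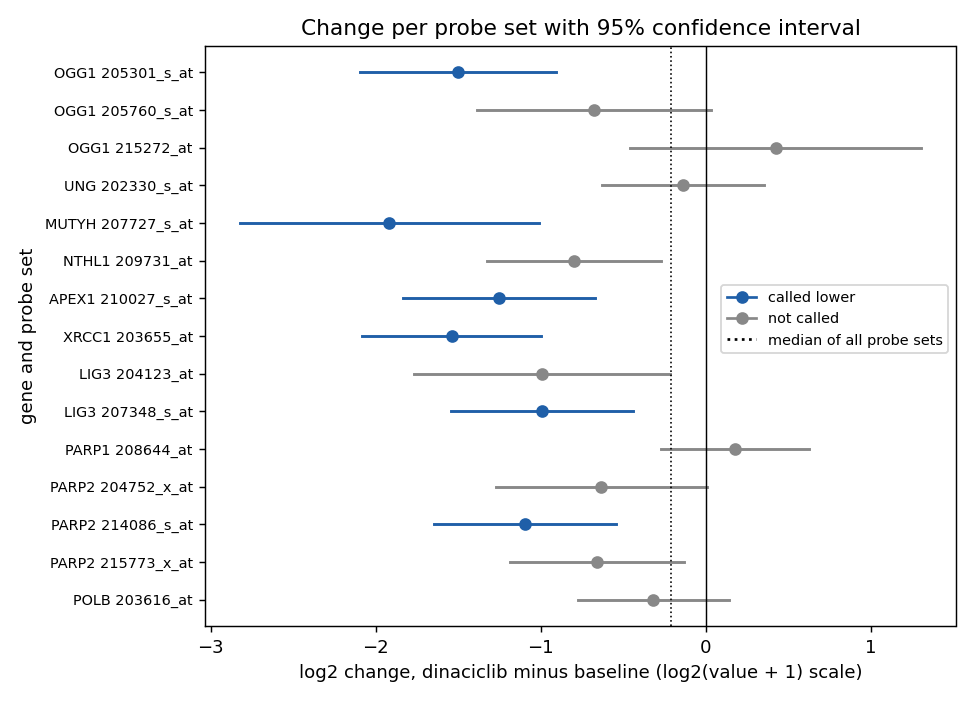
Log2 change (x axis, dinaciclib minus baseline, log2(value + 1) scale) of the 15 probe sets with 95% confidence intervals, blue where called lower and grey where not called. The 6 called probe sets lie between -1.92 and -0.99, left of the dotted median of all probe sets at -0.21, and PARP1 lies right of 0.

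By step, and beside 13.4% of all probe sets called lower, the glycosylases had 2 of 6 probe sets called lower with a median of -0.74, and gap filling and ligation had 2 of 4 with a median of -0.99. APEX1 stood alone at its step, and the PARP enzymes had 1 of 4 called with a median of -0.65. Represented by its brightest probe set, 4 of the 10 genes were called lower, beside 15.1% of the 15114 probe sets tested in that fit. The 4 were MUTYH, APEX1, XRCC1 and NTHL1 (limma, Benjamini-Hochberg adjusted p = 0.0482 for NTHL1). OGG1, LIG3 and PARP2 were not called on that choice, in which brightness is the mean log2 value over both groups and so includes any fall. By baseline mean alone the called probe set was the brightest for OGG1 and PARP2, and was not for LIG3.

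The arrays differed as a whole. Median intensities were 53.3 to 66.2 at baseline and 40.6 to 46.8 after dinaciclib, and 2971 probe sets were called lower against 857 higher as deposited. Quantile normalization gave 2338 lower and 2130 higher and moved the median change of all probe sets to 0.03, centring on the array median gave 1938 and 3487 with a median of 0.24, and centring on spiked controls gave 2518 and 556 with -0.29. The mean log2 value of the spiked controls was 7.67 in dinaciclib 5 and 7.34 to 7.43 in the other samples. Within each group the sample marked with a letter differed from the rest, with an 18S ribosomal RNA control (5-prime probe set) of 736 in E and 1155 in F against 8273 to 9061 in the numbered samples. The labels do not say what the letters mark. Of markers of the line, VIM, CD44, AXL, CAV1, ANXA1 and MSN all read between 3411 and 9649. The luminal genes ESR1, PGR, FOXA1 and CDH1 read at most 33.6, while GATA3, EPCAM, KRT8 and KRT18 read 190.5 to 4235, and leukocyte and endothelial markers at most 46.0.

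Relative to the median of all probe sets as deposited, the called members changed by -1.71 (MUTYH), -1.33 (XRCC1), -1.29 (OGG1), -1.05 (APEX1), -0.89 (PARP2) and -0.79 (LIG3). Under all 3 other scalings MUTYH, XRCC1, OGG1 205301_s_at, APEX1 and PARP2 214086_s_at stayed lower and called. With all probe sets centred on the array median, the least favourable scaling to falls, their changes were -1.47, -1.09, -1.05, -0.80 and -0.64.

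**Figure D3:**
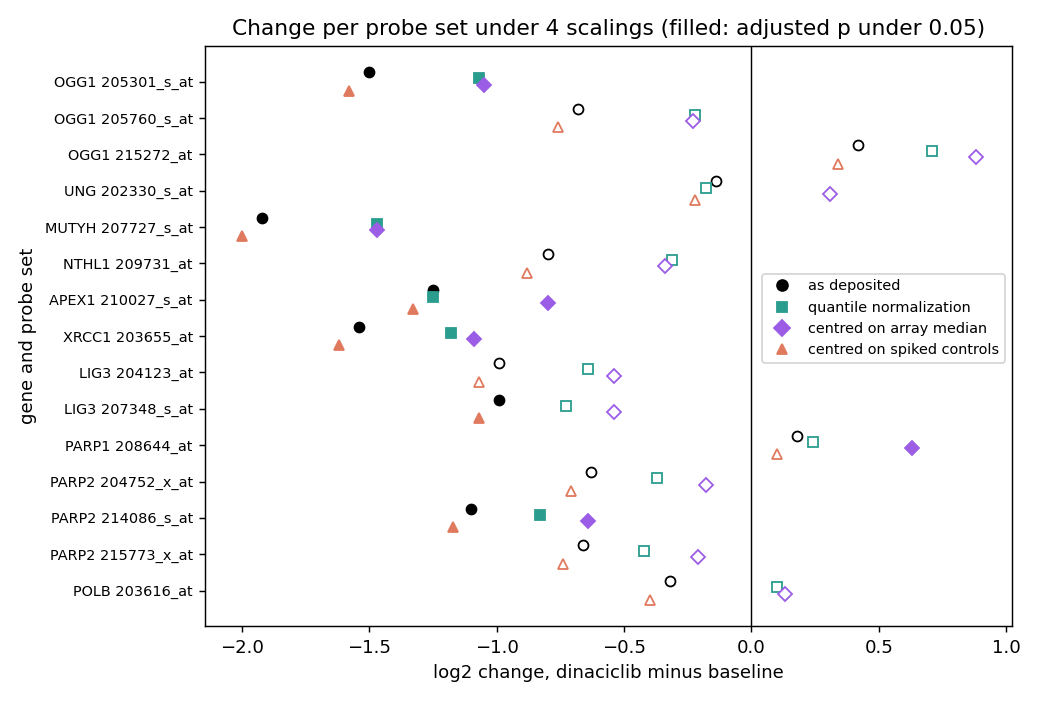
Log2 change (x axis) of the 15 probe sets as deposited and under 3 other scalings, filled where the adjusted p was under 0.05. MUTYH, XRCC1, APEX1, OGG1 205301_s_at and PARP2 214086_s_at are filled and below 0 under each scaling, whereas POLB changes side and PARP1 is filled at 0.63 when arrays are centred on their median.

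The letter and number samples were also read separately. From E to F the log2 differences were -1.71 for OGG1 205301_s_at, -1.58 for XRCC1, -1.56 for MUTYH, -1.11 for LIG3 207348_s_at, -1.09 for APEX1 and -0.60 for PARP2 214086_s_at, with 1 sample a group and no test. Within the 4 numbered samples the same probe sets had changes of -1.39, -1.52, -2.10, -0.94, -1.34 and -1.34. There only APEX1 and PARP2 passed, and 7.75% of all probe sets were called lower. With letter or number as a covariate 7 member probe sets were called lower, OGG1 205760_s_at being added (-0.68, limma, Benjamini-Hochberg adjusted p = 0.0489). In that fit the share of all probe sets called lower was also larger, at 15.8% against 13.4% without the covariate.

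The rest of the pathway was read from 6 lists of 63 further genes, of which 50 had 73 probe sets. In these, 16 genes fell, 1 rose and 33 did not pass. A gene was counted here and in each list if any of its probe sets was called. Genes with several probe sets thus had more chances to be counted, and no such count over all genes was made. Of the 73 probe sets 20 were lower and 1 higher, beside 13.4% and 3.86% of all probe sets. The median change was -0.48 beside -0.21 over all probe sets. Without baseline 4 or baseline 5 the 20 became 7 in either case, while 5.6% and 5.62% of all probe sets were called lower. Without dinaciclib F it was 11 (9.88% of all) and without dinaciclib 4 or 5 it was 12 (7.79% and 7.62% of all).

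Among 5 other glycosylases, 3 fell. In that list 5 of 9 probe sets were lower with a median of -1.04, beside 13.4% and -0.21 over all probe sets. NEIL3, which acts on oxidised bases in single strands and crosslinks, read 432, 585 and 545 at baseline and 142, 196 and 147 after dinaciclib, a log2 change of -1.68 (standard error 0.23) that passed whichever 1 sample was left out. MBD4, which removes thymine and uracil paired with guanine at CpG sites, fell on 3 of 4 probe sets, with changes of -1.25, -1.27 and -1.29, and had -1.03 on the other (limma, Benjamini-Hochberg adjusted p = 0.0523). Each of the 3 was lost without baseline 4 or 5 (highest adjusted p 0.0634, 0.0617 and 0.0859), and 2 of them without others too, namely dinaciclib 5 for the -1.25 and baseline E or dinaciclib 4 for the -1.29. SMUG1, another uracil glycosylase, was dim after dinaciclib (mean 15.7) and fell by 1.04 on the log2 scale (-0.64 with log2(value + 16)). Its call held only without baseline E among the 6 fits (highest adjusted p 0.0907). TDG, which shares the mismatched thymine substrate of MBD4, had changes of 0.15 and -0.43 and MPG, which removes alkylated purines, -0.63, and neither passed.

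In end processing and repair scaffolds, 6 of 8 genes fell, on 7 of 12 probe sets. Their median was -0.94, while 13.4% of all probe sets were called lower and the median of all was -0.21. APEX2, the minor relative of APEX1, read 91.1, 162 and 144 at baseline and 33.3, 30.7 and 34.1 after dinaciclib, a change of -1.95 (standard error 0.26; limma, Benjamini-Hochberg adjusted p = 0.0069). TDP1, which frees DNA ends from trapped topoisomerase I, read 585, 537 and 660.1 and then 166, 164 and 147, a change of -1.89 (standard error 0.19; adjusted p = 0.0038). POLL, a polymerase related to POLB, was dim in every sample, at 13.6 or less, and its change of -1.70 was -0.56 with log2(value + 16) (adjusted p = 0.0157). These 3 passed in all 6 fits that left out 1 sample, but POLL was not among the probe sets kept when dim ones were left out. The rest were RAD9A, RAD1 and HUS1, the subunits of a checkpoint clamp that also stimulates base excision repair enzymes, named after their values were seen. RAD9A (-1.46) passed in all 6 such fits, while RAD1, on 2 of 3 probe sets (-1.0 and -1.08), and HUS1, on 1 of 3 (-0.77), passed only without baseline E (highest adjusted p 0.0937, 0.116 and 0.149). The remaining RAD1 probe set had -0.89 and the remaining HUS1 probe sets -0.20 and -0.30, with overlapping groups, and did not pass (adjusted p = 0.15, 0.701 and 0.502).

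Of 15 long-patch synthesis and ligation genes, 4 fell and 11 did not pass. Of their probe sets 5 of 22 were lower with a median of -0.54, beside 13.4% and -0.21 over all probe sets. POLD3, a subunit of polymerase delta, had a change of -1.51 (standard error 0.27), RFC4, of the clamp loader, -1.41 (standard error 0.22) and RFC5, of the same loader, -1.20 and -0.85 on 2 of its 3 probe sets. The fourth was POLD4 (-1.04), also of polymerase delta and named after its values were seen, which passed only without dinaciclib 4 among the fits without 1 sample (highest adjusted p 0.0968). RFC4 passed whichever sample was left out, while POLD3 was lost without baseline 4 or 5 (highest adjusted p 0.0584), and the RFC5 change of -1.20 without those, dinaciclib F or dinaciclib 4 (highest 0.0723). The RFC5 change of -0.85 passed only without baseline E (highest 0.149). The central long-patch genes did not pass. The clamp PCNA had -0.31 (95% confidence interval -0.89 to 0.28), the flap nuclease FEN1 -0.13 and -0.27, and the ligase LIG1 -0.84 (limma, Benjamini-Hochberg adjusted p = 0.0726) with no overlap of groups.

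The other PARP family genes lay near the background, with a median of -0.19 over 14 probe sets of 11 genes, beside -0.21 over all probe sets. Of the 14, 1 was lower and 1 higher, against 13.4% and 3.86% of all probe sets. PARP4, the vault-associated member, read 1207, 1333 and 1157 at baseline and 496, 434 and 497 after dinaciclib, a change of -1.37 (standard error 0.18; limma, Benjamini-Hochberg adjusted p = 0.00671) that passed in every fit without 1 sample. ZC3HAV1, also called PARP13 and an RNA-binding antiviral protein, rose on 220104_at, from 77.9, 60.8 and 65.2 to 397, 191 and 205 (1.87, standard error 0.33; adjusted p = 0.014), lost without baseline 4 or 5 (highest 0.0569), while its brighter probe set 213051_at had -0.12 and did not pass. Of 7 genes of ADP-ribose removal and PARP partners, OARD1, which removes ADP-ribose from proteins, fell (-1.14, standard error 0.21), and PARG, the main enzyme that breaks poly(ADP-ribose) chains, had -0.57 (adjusted p = 0.195). That list had a median of 0.12, with 1 of 10 probe sets lower. Of 4 nucleotide pool genes DCTPP1, a dCTP pyrophosphatase, fell (-0.90, standard error 0.20). The list median was 0.04, with 1 of 6 probe sets lower. OARD1 was lost without baseline 4, baseline 5, dinaciclib F or dinaciclib 5 (highest 0.068), and DCTPP1 held only without baseline E (highest 0.117).

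**Figure D4:**
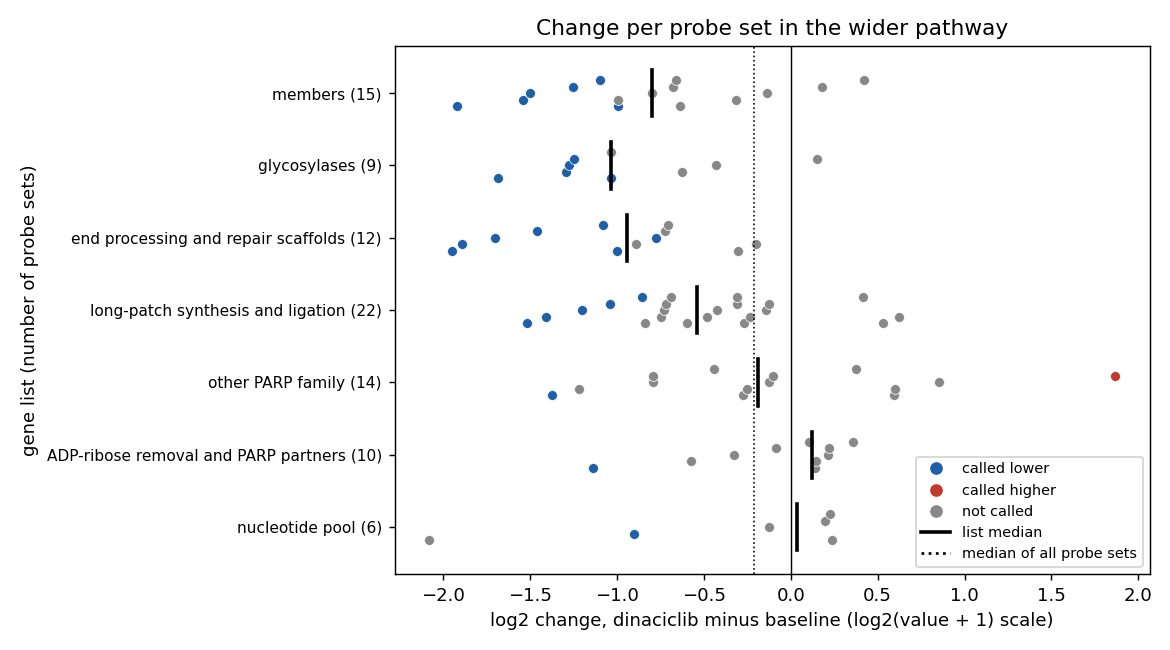
Log2 change (x axis) of every probe set of the 10 genes and of 6 lists of further pathway genes, blue called lower, red called higher and grey not called, with black bars at list medians and a dotted line at the median of all probe sets. Medians run from -1.04 in the other glycosylases to 0.12 in ADP-ribose removal and PARP partners, and the single red point is ZC3HAV1 at 1.87.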

How the data were processed

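Values came from the deposited series table, with 1 linear intensity per probe set and array for 22277 probe sets, each sample carrying a single biotin label. The intensities as deposited by the authors were linear, and their array medians differed. The summarisation method, background correction and scaling are not given in the sources used here. After 62 control probe sets were left out, 22215 were tested as log2(value + 1), with no filter on low values and no further scaling, with lmFit and eBayes (limma 3.58.1, R 4.3.3) and group as the only term. Benjamini-Hochberg adjustment ran over all 22215, and a call is an adjusted p under 0.05. No detection calls were used. Precision is limited by there being 3 arrays a group.

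Genes were named from the platform annotation, with identifiers looked up in RefSeq (GRCh38.p14), which matched 19052 of 19064 probe sets with 1 gene. Another 1043 had several genes and 2108 none named. Promoter windows were found for 9 of the 10 genes. Probe sets of a gene were ranked by mean log2 value over all 6 samples only to pick the brightest, and PARP1 was set against PARP2 by the change of their difference within arrays. The naming rule took all probe sets of the 10 genes, in each list the called genes with the 3 largest rises and falls, and 10 fixed pathway genes. The 10 genes, the lists and the tests were chosen with earlier results of these data known.

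Alternatives were 3 other scalings, log2(value + 16), no dim probe sets (mean under the 40% quantile), a robust fit with a variance trend, the brightest probe set per gene, a replicate block, a letter or number covariate, the 4 numbered samples alone, and each sample left out in turn. No pair of samples was identical, with 0 such pairs. Figures used matplotlib 3.10.9 in Python 3.11.15.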

Additional observations from a re-analysis of the deposited data

How the results depend on the processing

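Over the 15 member probe sets and the 16 alternatives that kept them, 189 changes kept direction and side of the threshold, 29 lost a call, 12 gained a call and 3 had the opposite sign. The 3 were POLB after quantile normalization (0.10) and median centring (0.13) and UNG after median centring (0.31), none of them called. All 29 losses fell on the 6 probe sets called in the report, since the others had no call to lose. XRCC1 was called in 14 of 16 alternatives, OGG1 205301_s_at in 13 of 15, and MUTYH and APEX1 each in 11 of 16. PARP2 214086_s_at was called in 10 of 15 and LIG3 207348_s_at in 4 of 14.

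Quantile normalization gave 5 pathway probe sets higher and 2130 of all higher. Median centring gave 1 member higher (PARP1), 10 pathway higher, and 1938 of all lower and 3487 higher. Spiked controls gave 556 of all higher. With log2(value + 16) 31 pathway probe sets were lower and 2 higher, without dim probe sets 31 and 3, and with a variance trend 33 and 2, while 18.1%, 30.0% and 18.1% of all tested were lower, beside 13.4% in the report. The trend gave 1291 of all higher. The brightest probe set per gene, which tests fewer rows, gave 0 pathway higher and 538 of all higher. The covariate gave 2 pathway higher and 1186 of all higher. The numbered samples alone gave 2 members and 11 pathway lower, and 1721 of all lower and 449 higher. With fewer samples the test has fewer degrees of freedom. For other moves the cause was not tested.

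Leaving out 1 sample gave 2 to 5 members lower, 7 to 21 pathway lower and 0 to 1 higher, and 1245 to 2684 of all lower and 362 to 629 higher.

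Marks 4 and 5 occur in both groups, but the labels do not say that they pair samples, and the difference between 4 and 5 correlated at 0.04 across probe sets between the groups. With the mark as a replicate block, which rests on 4 samples, limma called 0 probe sets of any kind, with 6799 at an unadjusted p under 0.05, 9 of them members. The lowest adjusted p of a member was 0.101.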

Other observations

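Only RefSeq gene starts with a promoter window in the reference used were searched for neighbours. Of the members, MUTYH, NTHL1 and APEX1 had such a start on the other strand within 1000 bases upstream of their own. POLB had no window, and a partner gene without a window would be missed, so other members may have partners too. These partners were picked by position after the values of the members were known. TOE1, a nuclease of small nuclear RNA maturation, starts 50 or 200 bases from 2 starts of MUTYH, while a further MUTYH start has no such neighbour upstream. TOE1 fell with a log2 change of -1.82 (standard error 0.24; limma, Benjamini-Hochberg adjusted p = 0.0066), from 8.24 to 6.43 log2 units, beside -1.92 for MUTYH. TOE1 passed in all 6 fits that left out 1 sample (highest adjusted p 0.0329) and remained lower at -1.37 under median centring. OSGEP, a transfer RNA modification enzyme 414 bases from the start of APEX1, had a change of -0.69 (standard error 0.17; adjusted p = 0.039), beside -1.25 for APEX1, but passed in 0 of the 6 fits without 1 sample (adjusted p 0.0636 to 0.14). TSC2, the tuberous sclerosis gene 151 or 368 bases from NTHL1, had changes of -0.17 and -0.44 on its 2 probe sets and did not pass, beside -0.80 for NTHL1, which did not pass either. Whether the transcripts of a pair change together was not tested.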
